A study of Mus musculus with 10 samples.

Results

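The genes of the nuclear pore and the nuclear envelope were compared between IgM and IgG1 plasma cells of the mouse spleen. They are 36 of the 47719 genes in the deposited files, chosen by symbol from a list of 26 nucleoporins and 10 lamina, inner membrane and chromatin-bridging proteins. The list was proposed with the IgM against IgG1 contrast already known. The values of these genes, and their calls in the fit over all genes, are therefore a description. They are no independent evidence that these genes differ as a group. All 36 symbols were found, and 35 passed the filter on low values. The gene below it was Lmna.

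Nuclear pores are protein channels through both membranes of the nuclear envelope, and each is built from many copies of proteins called nucleoporins. Scaffold rings hold the pore in the membrane, proteins with phenylalanine-glycine repeats fill the channel, and filaments reach into the cytoplasm on one side and form a basket in the nucleus on the other. Under the inner membrane lies the lamina, a mesh of lamin filaments, to which inner membrane proteins tie chromatin. In dividing animal cells both structures come apart in mitosis and are rebuilt afterwards, and new pores are also inserted as the nucleus grows in interphase.

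The 10 libraries came from sorted cells, 5 from IgM and 5 from IgG1 plasma cells. All cells descended from congenically marked donor B cells that carried S1PR2-CreERT2, Ai14 and B1-8germ and had been placed in wild-type hosts. S1PR2-CreERT2 is a tamoxifen-dependent Cre driven from a gene of germinal centre B cells, Ai14 is a reporter that makes tdTomato once Cre has acted, and B1-8germ is a heavy chain for the hapten NP. Hosts were given NP-CGG/alum on day 0 to start the response and tamoxifen on day 5 and again on day 6 to switch on Cre. On day 10, tdTomato+ donor plasma cells of either isotype were sorted from the spleen. Both groups share all of these alleles and agents and differ in the isotype used for sorting. Whether the libraries derive from different animals is not stated in any label. The p-values therefore measure only how these samples spread, which may reflect technical variation.

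Levels are in FPKM, the fragments of a gene set against its transcript length and the library's mapped total. An estimate of depth from the spacing of low values, which assumes fragments of 200 bases, gave 26850000 to 31170000 fragments in IgM and 26380000 to 38510000 in IgG1 libraries. Genes above 0 numbered 15121 to 15800 in IgM and 13286 to 13961 in IgG1 libraries. Plasma cell markers were abundant in both groups, with a mean Jchain of 38840 FPKM in IgM and 21140 in IgG1 and a mean Xbp1 of 2928 and 3194, while the B cell factor Pax5 stayed at a mean of 0.0704 and 0.0600. Of 6 plasma cell markers, Xbp1 was called higher in IgG1 and the other 5, among them Tnfrsf17 (137.7 against 48.3 FPKM) and Prdm1 (53.5 against 29.2), were called lower. In such bulk samples, fewer cells of a type and less RNA per cell cannot be told apart.

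Across the 35 tested members, 17 genes were called higher in IgG1 cells, where 18.1% of all tested genes were. Most of the 17 are envelope and pore scaffold genes of the list. Of 16 tested envelope genes outside the list, 0 were called higher and 1 lower, and of 8 tested nucleoporins outside it, 1 was called higher. The 3 members called lower, against 20.2% of all tested genes, belong to the cytoplasmic face and the nuclear basket of the pore. The inner membrane protein Nrm was 2.94-fold higher, the B-type lamins Lmnb2 and Lmnb1 were 2.85-fold and 2.57-fold higher, and the membrane-spanning pore protein Nup210 was 2.82-fold higher, each as a ratio of mean FPKM. Ranbp2, Nup88 and Tpr stood at 0.689, 0.757 and 0.792 of their IgM means. These last 3 genes fall outside the rule for named genes and were picked out after their values were seen. In a fit with trends of transcript length and GC content removed, Ranbp2 and Tpr were no longer called. The call of Nup88 was lost in 8 of 20 alternative fits.

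Differences below are IgG1 minus IgM on the log2(FPKM + 1) scale, which understates changes of low genes, with the standard error of the limma fit. Values after ± are SDs over the 5 libraries of a group. A gene is called where limma's adjusted p over all 9900 tested genes is under 0.05. The 17 members called higher compare with 18.1% of all tested genes called higher, and the 3 called lower with 20.2% of all tested genes called lower. Among members, 12 had 5 IgG1 values all above the 5 IgM values, and 13.1% of tested genes did. Only Ranbp2 had its groups apart in the other direction, and 13.3% of tested genes did. The mean difference was above 0 in 28 members and below 0 in 7, with a median of 0.38 against -0.05 over all tested genes. Because the members were proposed from this contrast, nothing is read from these shares.

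**Figure D1:**
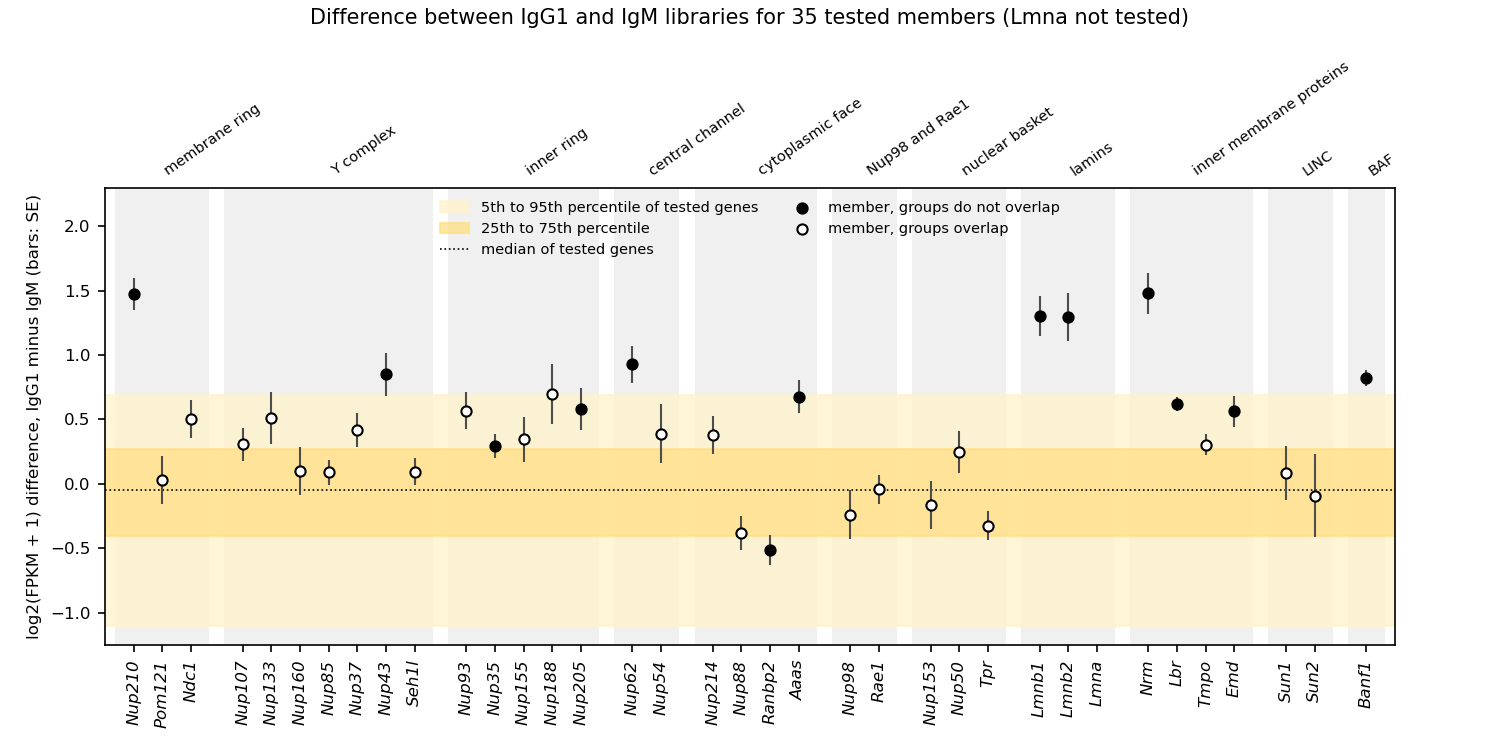
Log2(FPKM + 1) difference, IgG1 minus IgM, with its standard error, for the 35 tested members grouped by role; filled points have groups that do not overlap, and the bands give percentiles of all 9900 tested genes (25th -0.41, 75th 0.27, 95th 0.69). Nup210, Nup43, Nup62, Nup188, both B-type lamins, Nrm and Banf1 lie above the 95th percentile, and no member lies below the 5th (-1.11).

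In IgM libraries, 6 to 11 of the 35 members were above their own mean over all libraries, and in IgG1 libraries 25 to 27 were. The median deviation of members from that mean was -0.39 to -0.114 in IgM and 0.162 to 0.23 in IgG1 libraries. For all tested genes it was 0.012 to 0.032 and -0.035 to 0.021. These counts restate, library by library, the contrast from which the members were proposed.

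The promoters of 4 members are shown, picked by their values: Nup210 and Nrm have the largest differences, Banf1 has the highest level and Ranbp2 has the lowest difference. Each run holds 250 bases before a RefSeq transcript start (GRCm38.p6) and 30 bases from the start on, 5′ to 3′ along the gene's strand. The regions are chr6:91116797-91117076 on the minus strand, chr17:35861068-35861347 on the plus strand, chr19:5366847-5367126 on the minus strand and chr10:58446602-58446881 on the plus strand. Capitals mark the letters TTCCCGC or their reverse complement GCGGGAA, the core of a site that E2F factors of the cell cycle can bind.
Nup210: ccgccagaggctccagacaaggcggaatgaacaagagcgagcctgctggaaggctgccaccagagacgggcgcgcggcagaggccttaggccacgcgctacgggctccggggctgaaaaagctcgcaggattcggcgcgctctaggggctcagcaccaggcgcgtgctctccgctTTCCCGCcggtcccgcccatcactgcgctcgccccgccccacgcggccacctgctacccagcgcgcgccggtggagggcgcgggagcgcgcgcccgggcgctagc
Nrm: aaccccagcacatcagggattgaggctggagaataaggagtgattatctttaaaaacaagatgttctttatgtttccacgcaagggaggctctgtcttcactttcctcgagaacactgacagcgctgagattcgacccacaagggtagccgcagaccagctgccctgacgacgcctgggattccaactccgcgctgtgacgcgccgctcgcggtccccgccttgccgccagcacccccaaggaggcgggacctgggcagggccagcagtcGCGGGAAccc
Banf1: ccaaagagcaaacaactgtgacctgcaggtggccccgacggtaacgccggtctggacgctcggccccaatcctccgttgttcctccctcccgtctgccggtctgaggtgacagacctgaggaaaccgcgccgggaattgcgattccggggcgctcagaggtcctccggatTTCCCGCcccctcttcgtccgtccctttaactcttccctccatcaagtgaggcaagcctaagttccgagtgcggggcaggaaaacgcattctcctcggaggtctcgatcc
Ranbp2: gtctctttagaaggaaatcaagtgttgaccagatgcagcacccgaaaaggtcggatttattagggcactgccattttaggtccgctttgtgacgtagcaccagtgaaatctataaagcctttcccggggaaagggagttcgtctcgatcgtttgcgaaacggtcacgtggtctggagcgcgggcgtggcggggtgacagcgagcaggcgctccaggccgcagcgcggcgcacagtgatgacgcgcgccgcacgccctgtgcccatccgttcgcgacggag

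A RefSeq promoter of 300 bases, with 50 after the start, was found for 31 of the 36 members; a gene with several starts was counted once if any of its windows held the letters on either strand. TTCCCGC was found in 6 of the 31 (19.4%), namely Banf1, Nrm, Nup107, Nup133, Nup210 and Tmpo, and in 10.5% of 7434 tested genes with a promoter. Of the 14 members called higher that had a promoter, 4 held TTCCCGC. In Nup210 and Banf1 it begins 75 and 80 bases before the start, and in Nrm it begins 20 bases after it. For the CCAAT box (CCAAT) the shares were 51.6% of members and 43.9% of tested genes, and for the cell cycle element CHR (TTTGAA) 25.8% and 14.6%. Shares for the E box (CACGTG) were 12.9% and 12.5%, and those for the ETS site (CCGGAAG) were 25.8% and 24.6%. No letters of one motif are contained in another. A match describes the sequence and shows no binding, and a missing match says only that these letters are not in the window.

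Nup210, Pom121 and Ndc1 span the pore membrane and anchor the scaffold in it. Nup210, at chr6:91013068-91116829 on the minus strand (GRCm38), read 16.14, 21.7, 12.83, 21.58 and 17.5 FPKM in IgM replicates 1 to 5. In IgG1 replicates 1 to 5 it read 50.5, 52.08, 53.39, 48.1 and 49.37. Every IgG1 library lay above every IgM library by a wide gap, and the difference was 1.47 (SE 0.13). IgG1 libraries were also close to each other, with a coefficient of variation of 4.15% against 21.02% in IgM. Over all tested genes, too, IgG1 libraries were more alike. A library's median correlation with its own group was 0.9313 to 0.9385 in IgM and 0.9586 to 0.9631 in IgG1.

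Ndc1 was higher in IgG1 cells, at 16.2 ± 3.55 FPKM in IgM and 23.1 ± 2.92 in IgG1 (SD, n = 5), with overlapping groups. Pom121 had one of the 4 smallest differences among members, 0.03 (SE 0.18). Its values were 8.933, 6.908, 4.411, 5.849 and 4.865 FPKM in IgM and 5.275, 7.015, 6.384, 6.667 and 5.646 in IgG1, and the IgM libraries spread around the IgG1 ones. The FPKM ratio of Nup210 to Ndc1 was 1.13 ± 0.27 in IgM and 2.22 ± 0.28 in IgG1 (SD, n = 5), with no overlap. Exons of Pom121 share 665 bases with Nsun5 on the opposite strand, 11.9% of its exon bases, and the library kit does not keep strand.

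**Figure D2:**
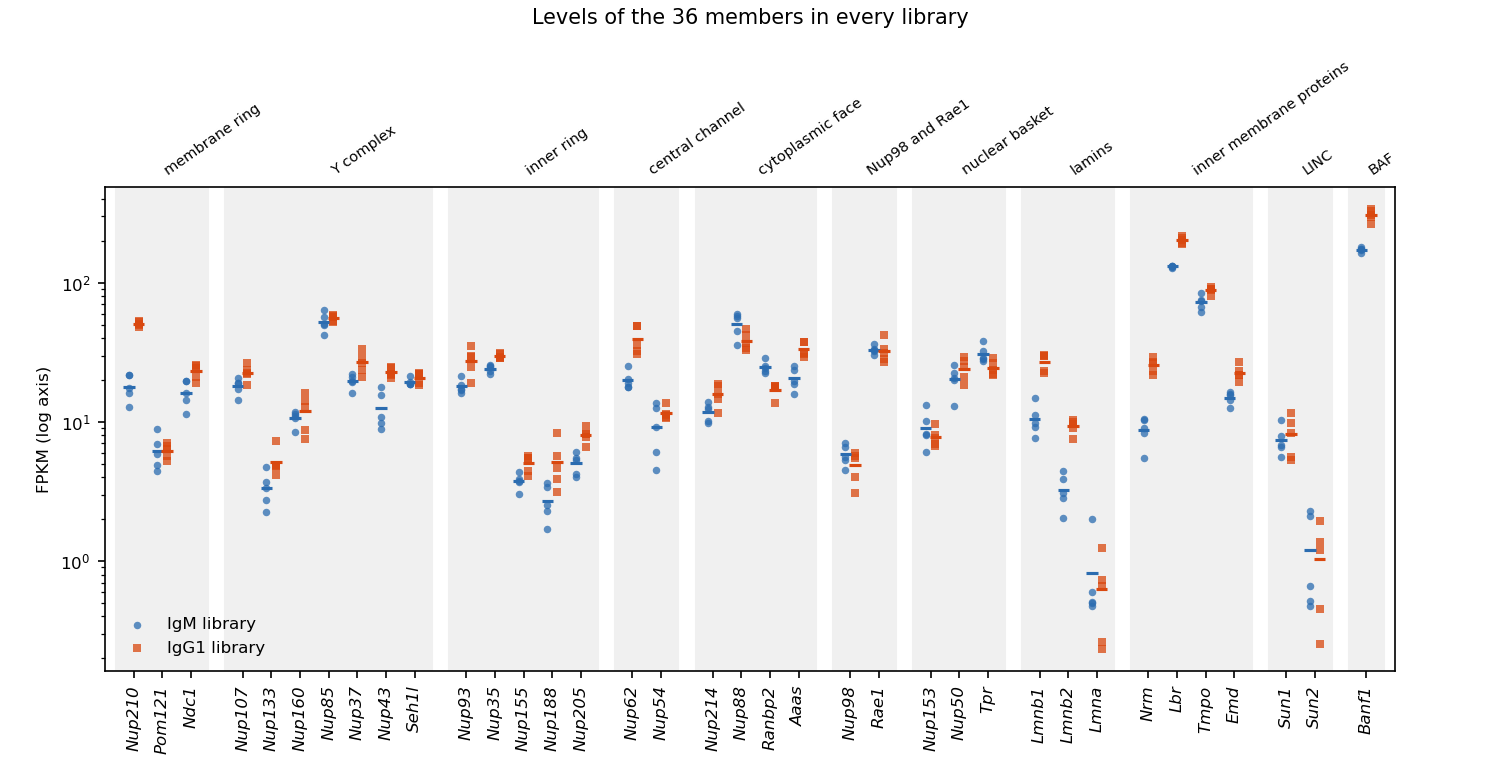
FPKM of all 36 members in every library on a log axis, grouped by role; circles are the 5 IgM libraries, squares the 5 IgG1 libraries, and short lines the group means. Nup210, the B-type lamins and Nrm show separate clouds, while Pom121, Nup85, Seh1l and Rae1 show clouds that overlap, and Lmna stays below 1 FPKM in 8 of the 10 libraries.

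The Y complex forms the outer rings of the scaffold, and 7 of its genes are members. Called higher were 2 of the 7, Nup43 and Nup37, where 18.1% of all tested genes were. The median difference of the 7 was 0.31. Nup43, a small beta-propeller subunit, read 10.9, 9.886, 15.63, 17.74 and 8.878 FPKM in IgM and 20.71, 21.7, 22.13, 24.58 and 24.91 in IgG1. Its groups did not overlap, and the difference was 0.85 (SE 0.16). Nup37, another beta-propeller subunit, had 19.7 ± 2.26 FPKM in IgM and 26.8 ± 4.79 in IgG1, a difference of 0.42 with overlap. Its call was lost without IgG1 replicate 4 and with no filter.

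The other 5 subunits were not called. Nup85 read 57.17, 41.87, 63.48, 50.89 and 49.8 FPKM in IgM and 56.58, 53.02, 58.34, 51.99 and 58.13 in IgG1, with all IgG1 values inside the IgM range. Its difference was 0.09 (SE 0.10), close to 0.10 for Nup160 and 0.10 for Seh1l, which were both 0.28 with length and GC trends removed. Nup107 and Nup133, which join in the stem of the Y, had differences of 0.31 and 0.51. For Nup133, IgG1 replicate 3 stood apart, at 7.269 FPKM against 4.163 to 4.908 in the other IgG1 libraries. The level of Nup85 exceeded that of Nup133 in every library, with a ratio of 16.6 ± 4.89 in IgM and 11.1 ± 2.04 in IgG1 (SD, n = 5), although the proteins are subunits of one complex.

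The inner ring surrounds the channel at the membrane's midplane. Of its 5 member genes 4 were called higher, against 18.1% of all tested genes, and the median difference of the 5 was 0.57. Nup205, a large scaffold protein, read 4.213, 4.006, 5.354, 6.043 and 5.533 FPKM in IgM and 8.163, 7.816, 9.302, 8.137 and 6.608 in IgG1, without overlap, and differed by 0.58 (SE 0.16). Its relative Nup188 differed by 0.70 (SE 0.23) with overlap, from 2.70 ± 0.79 FPKM to 5.15 ± 2.03. That call was lost without IgM replicate 1 or 4 and without IgG1 replicate 1 or 4, with differences of 0.53 to 0.67. It was also lost with no filter.

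Nup93, the linker to which Nup205 and Nup188 bind, was called higher, from 18.01 ± 2.098 FPKM in IgM to 27.6 ± 6.08 in IgG1 with overlap. Nup35, which touches the membrane, had a smaller difference of 0.30 (SE 0.09) but no overlap, from 24.1 ± 1.47 to 29.9 ± 1.14 FPKM. A gene model named Gm4353 matches Nup35 at 99.6% over 1547 bases, so reads could be split between them; it was listed at means of 0.234 and 0.322 FPKM. Nup155, another membrane-touching scaffold protein, differed by 0.34 (SE 0.17) and was not called.

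Nup62 and Nup54 carry the repeats of the central channel through which cargo passes. Nup62 read 17.78, 19.15, 17.92, 20.24 and 25.06 FPKM in IgM and 35.78, 49.3, 30.65, 32.62 and 48.97 in IgG1. Its groups did not overlap, and IgG1 replicates 2 and 5 stood above the other IgG1 libraries; the difference was 0.93 (SE 0.14). Exons of Nup62 share 97 bases, 3.40% of its exon bases, with Il4i1 on the same strand, which was higher in IgM at 7.74 against 0.577 FPKM. Nup54 differed by 0.39 (SE 0.23) and was not called, with IgM values from 4.54 to 13.64 FPKM enclosing 4 of the 5 IgG1 values.

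Nup214, Nup88, Ranbp2 and Aaas lie on the cytoplasmic face, where export cargo is released. Ranbp2, the large filament protein that binds Ran and carries SUMO ligase activity, read 25.24, 24.25, 22.49, 28.71 and 23.08 FPKM in IgM. In IgG1 it read 17.84, 18.04, 18.11, 13.78 and 17.46, all below the lowest IgM value. Its difference was -0.51 (SE 0.12). With trends of length and GC content removed it was -0.16 and no longer called, which is given with the length results below.

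Nup88, which holds Nup214 in place, was called lower at -0.38 (SE 0.14), with overlap between 57.59, 55.95, 59.68, 35.73 and 45.14 FPKM in IgM and 36.68, 41.95, 34.27, 32.67 and 46.67 in IgG1. Leaving out IgM replicate 1, 2 or 3 or IgG1 replicate 1, 3 or 4 ended that call, at differences of -0.37 to -0.32. The call of Nup88 was also lost with no filter and without limma's trend and robust settings. Its partner Nup214 went the other way at 0.38 (SE 0.15) and was not called. The FPKM ratio of Nup88 to Nup214 was 4.40 ± 1.18 in IgM and 2.47 ± 0.39 in IgG1 (SD, n = 5), and only IgM replicate 4, at 2.57, lay within the IgG1 range.

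Aaas, also called ALADIN, read 19.59, 23.47, 18.89, 25.33 and 15.95 FPKM in IgM and 29.24, 31.25, 31.01, 37.54 and 37.62 in IgG1. All IgG1 values were above all IgM values, and the difference was 0.68 (SE 0.13). The 4 genes of this face summed to 108.1 ± 9.00 FPKM in IgM and 104.6 ± 9.12 in IgG1. The median difference of the 4 was -0.002, and 0.10 with length and GC trends removed.

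Nup98 and its partner Rae1, an mRNA export factor, had overlapping groups and were not called. Rae1 read 30.05, 36.14, 32.48, 32.86 and 33.65 FPKM in IgM and 26.8, 31.17, 28.55, 41.86 and 33.42 in IgG1, a difference of -0.04 (SE 0.11). Nup98 was at 5.83 ± 0.99 FPKM in IgM and 4.87 ± 1.28 in IgG1, a difference of -0.24 (SE 0.19).

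Tpr, Nup153 and Nup50 make up the nuclear basket and its attachments. Tpr, the coiled-coil protein that forms the basket's struts, was called lower, with 28.51, 32.25, 28.92, 37.94 and 27.29 FPKM in IgM and 21.76, 21.95, 26.36, 28.93 and 23.67 in IgG1. Only IgG1 replicate 4 reached into the IgM range. Its difference was -0.32 (SE 0.12), and the call was lost without IgM replicate 2 or 4 and without IgG1 replicate 1, 2 or 5, at -0.31 to -0.25. The call of Tpr was also lost with length and GC trends removed (-0.10) and under median-ratio scaling or quantile normalization (-0.29 in each). It was lost as well with no filter and without limma's trend and robust settings. Nup153, which fixes the basket to the pore, differed by -0.16 (SE 0.18), and the importin-binding Nup50 by 0.24 (SE 0.16); neither was called. The median of the 3 basket genes was -0.16, and 0.01 with length and GC trends removed.

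Summed over the 26 nucleoporins, FPKM was 467.1 ± 11.9 in IgM and 570.8 ± 14.8 in IgG1 (SD, n = 5). Without Nup210 the sums were 449.2 ± 10.2 and 520.1 ± 14.7. The membrane ring went from 40.4 ± 7.05 to 79.98 ± 4.56, the inner ring from 53.6 ± 1.197 to 75.7 ± 7.72, and the central channel from 29.2 ± 6.53 to 51.0 ± 8.47. For the nuclear basket the sums were 60.5 ± 7.73 and 56.5 ± 2.82. Sums of the membrane ring, Y complex, inner ring and central channel did not overlap between groups, and those of the cytoplasmic face, Nup98 with Rae1 and the basket did.

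**Figure D3:**
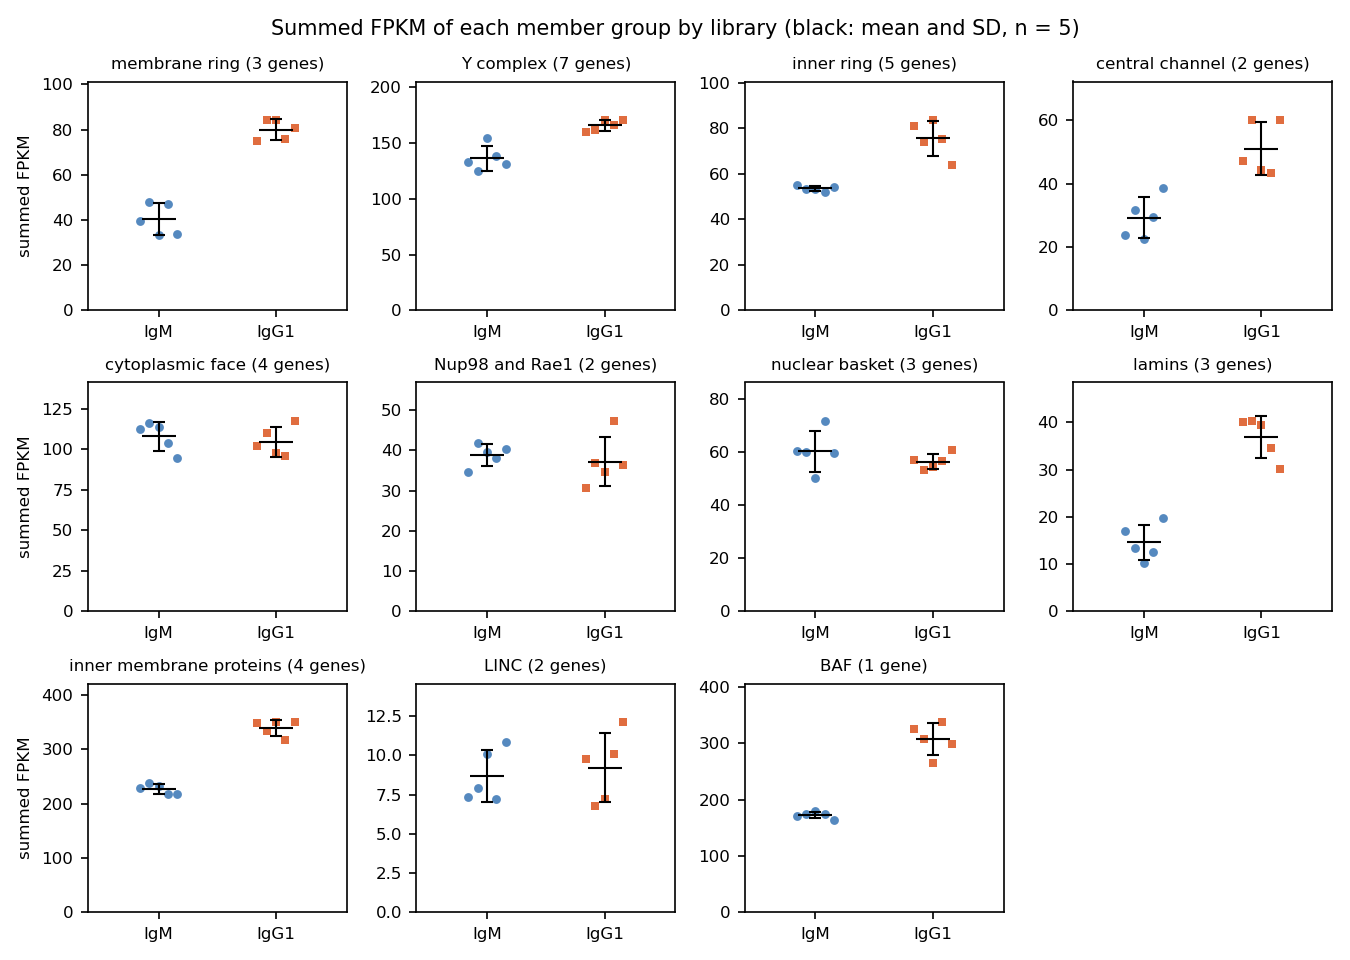
Summed FPKM of each group of members in every library, with axes starting at 0 and bars for the mean and SD of 5 libraries. The lamins (14.6 against 37.0), the inner membrane proteins (227.3 against 339.9) and Banf1 (173.1 against 307.5) separate the groups, while the cytoplasmic face (108.1 against 104.6) and the basket (60.5 against 56.5) do not.

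Among the 3 lamins, the B-type lamins are made in nearly all cells, and the A-type lamin Lmna varies most between tissues. Lmnb1 read 11.19, 9.761, 7.702, 9.177 and 14.82 FPKM in IgM and 29.77, 29.69, 30.17, 23.15 and 22.46 in IgG1. The groups were far apart, with a difference of 1.30 (SE 0.16). Lmnb2, at chr10:80901203-80918245 on the minus strand, read 3.895, 3.092, 2.038, 2.858 and 4.421 FPKM in IgM and 9.649, 9.967, 9.049, 10.3 and 7.497 in IgG1. It differed by 1.29 (SE 0.18), again without overlap.

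The FPKM ratio of Lmnb1 to Lmnb2 was 3.28 ± 0.33 in IgM and 2.93 ± 0.41 in IgG1 (SD, n = 5), with overlap. Lmna was low in all libraries, at 1.99, 0.4789, 0.6023, 0.4987 and 0.5095 FPKM in IgM and 0.6606, 0.7309, 0.2338, 1.243 and 0.2633 in IgG1. Its mean of 0.721 FPKM over all libraries was under the filter of 1 FPKM, so it was not tested. IgM replicate 1 stood above the other IgM libraries, and the groups overlapped.

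All 4 inner membrane proteins among the members were called higher in IgG1, against 18.1% of all tested genes. Nrm, or nurim, a multi-pass membrane protein at chr17:35861318-35865402 on the plus strand, read 5.466, 8.317, 10.25, 10.53 and 8.977 FPKM in IgM. In IgG1 it read 26.69, 29.11, 21.91, 27.12 and 23.32, all far above the highest IgM value, and the difference of 1.48 (SE 0.16) was the largest of the members. An antisense gene, Ppp1r18os, shares 13.6% of its exon bases and was listed at means of 0.0658 and 0.0703 FPKM.

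Lbr, the lamin B receptor, binds B-type lamins and heterochromatin and is also a sterol reductase. It read 132.9, 130.7, 132.3, 128.1 and 132.4 FPKM in IgM and 204.1, 193.2, 216.6, 189.2 and 209.1 in IgG1. The IgM libraries lay within a coefficient of variation of 1.5%, the IgG1 libraries did not reach them, and the difference was 0.62 (SE 0.06). The ratio of Lbr to Nrm was 15.97 ± 4.87 in IgM and 8.02 ± 1.37 in IgG1 (SD, n = 5). On the opposite strand, Dnah14 shares 440 bases with Lbr and was listed at means of 1.46 and 1.78 FPKM.

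The LEM-domain proteins Tmpo and Emd bind the chromatin protein BAF. Emd, or emerin, differed by 0.56 (SE 0.12) without overlap, from 15.0 ± 1.54 FPKM to 22.7 ± 2.78. Tmpo, which encodes the LAP2 proteins, differed by 0.30 (SE 0.08), from 72.4 ± 8.43 to 89.2 ± 4.76, with overlap. Banf1 encodes BAF itself, which bridges DNA and these proteins and helps gather chromosomes into one nucleus after mitosis.

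Banf1 had the highest level of all members, with 171.8, 174.4, 179.9, 175 and 164.5 FPKM in IgM and 326.4, 307.8, 265.8, 338.6 and 298.8 in IgG1. Its groups were far apart, and the difference was 0.82 (SE 0.06). Part of its exons, 428 bases or 28.6%, overlaps Eif1ad on the opposite strand, listed at means of 19.7 and 24.7 FPKM, and reads there cannot be assigned by strand.

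Sun1 and Sun2 cross the inner membrane and link the lamina to the cytoskeleton in the LINC complex, and neither was called. Sun1 read 6.856, 5.629, 7.967, 6.552 and 10.38 FPKM in IgM and 8.359, 5.604, 5.303, 9.797 and 11.69 in IgG1, with full overlap and a difference of 0.08 (SE 0.21). Sun2 was at 1.21 ± 0.91 FPKM in IgM and 1.04 ± 0.69 in IgG1, a difference of -0.09 (SE 0.32) that turned to 0.17 under quantile normalization. The 10 lamina, membrane and chromatin-bridging genes summed to 423.7 ± 10.6 FPKM in IgM and 693.5 ± 21.8 in IgG1 (SD, n = 5), without overlap.

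Ordered by mean FPKM over all libraries, Banf1 (240.3), Lbr (166.9), Tmpo (80.8), Nup85 (54.1) and Nup88 (44.6) were highest. Lowest were Lmna (0.721), Sun2 (1.13), Nup188 (3.93), Nup133 (4.28) and Nup155 (4.39). Nup85 and Nup88 had neighbouring IgM means of 52.6 and 50.8 with overlapping libraries, and IgG1 means of 55.6 and 38.5 without overlap. The 3 lowest nucleoporins, Nup188, Nup133 and Nup155, overlapped within IgM cells, at 2.70 ± 0.79, 3.36 ± 0.95 and 3.75 ± 0.48 FPKM.

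Transcript length moved with the difference across all tested genes. Genes of up to 2000 bases had a median difference of 0.14 and those over 5000 bases -0.25, and members followed the same order at a higher level. The 8 members of up to 2000 bases had a median of 0.62, and 7 were called higher, where 30.4% of all tested genes of that length were. The 12 members over 5000 bases had a median of 0.22, with 3 called higher and 2 lower, the latter being Ranbp2 (9608 bases) and Tpr (7480 bases). Of all tested genes over 5000 bases, 6.18% were called higher and 29.0% lower. Nup210, at 7037 bases, was an exception with its difference of 1.47. By GC content, members at or over 50% had a median of 0.68 and those under 50% one of 0.31, against 0.09 and -0.19 over all tested genes.

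With trends of length and GC content removed in each library, 20 members were called higher and 1, Nup88, lower, against 15.0% and 18.6% of all tested genes in that fit. Ranbp2 moved from -0.51 to -0.16 and Tpr from -0.32 to -0.10, while Nup155 moved from 0.34 to 0.63 and joined the called genes. The signs of Nup85, Nup153 and Pom121 changed, to -0.01, 0.01 and -0.08. Nup210, Nrm, Lmnb1 and Lmnb2 kept differences of 1.43, 1.23, 1.18 and 1.12. The part of length and GC content in the uncorrected values was not tested.

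**Figure D4:**
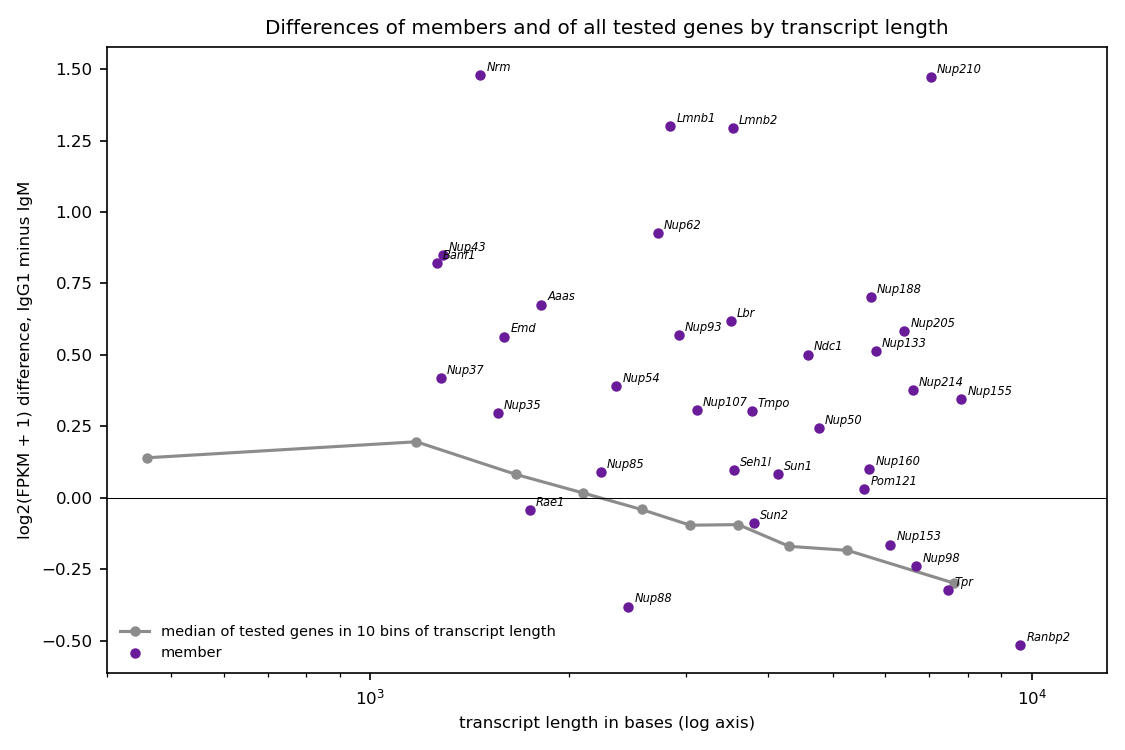
Log2(FPKM + 1) difference, IgG1 minus IgM, of each tested member against the length of its longest coding transcript in bases (log axis), with the median of all tested genes in 10 bins of length as the grey line. The grey line is at 0.14 in the shortest bin and 0.20 in the next, and from there falls to -0.30 in the longest. Ranbp2 and Tpr sit at the long end, and Nup210 stands far above the line.

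Cell cycle genes moved with these members. Of 14 S phase genes 13 were called higher in IgG1, where 18.1% of all tested genes were. The summed FPKM of the S phase genes was 735 to 922.3 in IgM and 1415 to 1507 in IgG1 libraries. Of 12 genes of G2 and mitosis 9 were called higher, with sums of 811.1 to 949.3 and 1177 to 1212, while Mki67 was at 43.2 ± 4.63 and 36.4 ± 3.72 FPKM and was not called. The nuclear-retained RNAs Malat1 and Neat1 were both called lower, and their sum was 2694 to 3934 FPKM in IgM and 388.4 to 724.7 in IgG1 libraries. Their part in the result was not tested.

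Markers of other cell types were counted in the same way. Mature B cell markers summed to 116.2 to 138.7 FPKM in IgM and 77.7 to 95.7 in IgG1 libraries, with 3 of 3 tested called lower. Macrophage and monocyte markers summed to 31.9 to 39.4 and 14.3 to 20.7. Most of that sum is Cd68 (31.2 against 12.9 FPKM), the 1 of 3 tested called lower. Lyz2 (1.09 against 1.62 FPKM) and C1qb (2.14 against 1.99) were tested and not called. Csf1r (0.23 against 0.58), C1qa (0.48 against 0.99) and Adgre1 (0.19 against 0.17) were under the filter. T cell markers summed to 0.248 to 1.95 and 0.773 to 3.10, and Cd4, the only one tested, was called higher (0.28 against 1.87 FPKM). Neutrophil genes S100a8, S100a9 and Camp and the stromal genes Col1a1 and Col1a2 were at 0 in all libraries. The neutrophil gene Ly6g reached 1.24 FPKM in IgG1 replicate 2. From the same list as the stromal genes, Pecam1 was at means of 5.48 and 6.42 FPKM and was not called. Cdh5 of that list was at 0.288 and 0.0628. Erythroid markers summed to at most 4.62 FPKM in any library. The part of these cells in the result was not tested.

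Genes outside the list were taken by function with earlier results known, 71 in all, of which 67 were tested. Limma called 15 higher and 4 lower, with a median of 0.11. Of all tested genes, 18.1% were called higher and 20.2% lower, and these shares are the background for each list below. Of the Ran cycle, whose small GTPase gives nuclear transport its direction, 7 of 7 genes were called higher, and 5 of the 7 with length and GC trends removed. Ran went from 85.4 ± 5.16 FPKM to 165.5 ± 13.6 (difference 0.94, limma's Benjamini-Hochberg adjusted p = 1.11e-08). The Ran-binding Ranbp1 (201.6 to 344.8 FPKM, adjusted p = 2.8e-08) and Rcc1, the chromatin-bound exchange factor for Ran (11.1 to 24.3, adjusted p = 0.000255), were called higher by limma, each with no overlap. Nutf2, which imports Ran, went from 22.8 to 33.4 FPKM (adjusted p = 0.000336 by limma).

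Importins carry cargo into the nucleus, and 3 of 16 were called, all higher, near the 18.1% of all tested genes called higher. Kpna2 went from 191.9 to 248.7 FPKM, Ipo5 from 13.8 to 20.7 and Ipo4 from 8.19 to 13.6, with limma's adjusted p of 6.22e-05, 0.00114 and 0.00664; with no filter that of Ipo4 was 0.0547. Exportins, where 20.2% of all tested genes were called lower, showed 1 call in 7, Xpo4, lower at 13.8 against 10.2 FPKM (adjusted p = 0.0312 by limma). That call was lost without IgM replicate 3 or 5 or IgG1 replicate 1 or 5, at adjusted p of 0.0595 to 0.0827 by limma. It was also lost with length and GC trends removed (-0.10, adjusted p = 0.64), under quantile normalization (-0.28, adjusted p = 0.124) and with no filter (adjusted p = 0.0705). The main export receptor Xpo1 was at 34.0 ± 1.05 and 29.1 ± 4.69 FPKM and was not called.

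For mRNA export, 4 genes were called higher and 2 lower of 13, against 18.1% and 20.2% of all tested genes. Nxt1, the partner of the export receptor Nxf1, went from 38.3 to 57.7 FPKM, the helicase Ddx39b from 49.4 to 65.9 and the adaptor Alyref from 149.9 to 176.9, with limma's adjusted p of 0.000283, 0.000821 and 0.0156. Alyref was not called with no filter (adjusted p = 0.0926), under quantile normalization (adjusted p = 0.0898) or without limma's trend and robust settings (adjusted p = 0.0704). Thoc2 of the THO complex was lower, at 16.8 against 10.2 FPKM (adjusted p = 0.0155 by limma), and -0.34 with length and GC trends removed (adjusted p = 0.251); with no filter its adjusted p was 0.113. Among 8 tested further nucleoporins only Zc3hc1, a basket protein, was called, higher at 9.49 against 15.3 FPKM (adjusted p = 0.000954 by limma). Among 16 tested other envelope proteins only Tor1aip2, an activator of torsin ATPases, was called, lower at 19.9 against 15.7 FPKM (adjusted p = 0.0454 by limma). The call of Tor1aip2 was lost without IgM replicate 1, 3 or 4 or any of IgG1 replicates 1 to 4. It was also lost with length and GC trends removed (-0.22, adjusted p = 0.21), under quantile normalization (-0.24, adjusted p = 0.142) or median-ratio scaling (adjusted p = 0.0671), and with no filter (adjusted p = 0.122).

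**Figure D5:**
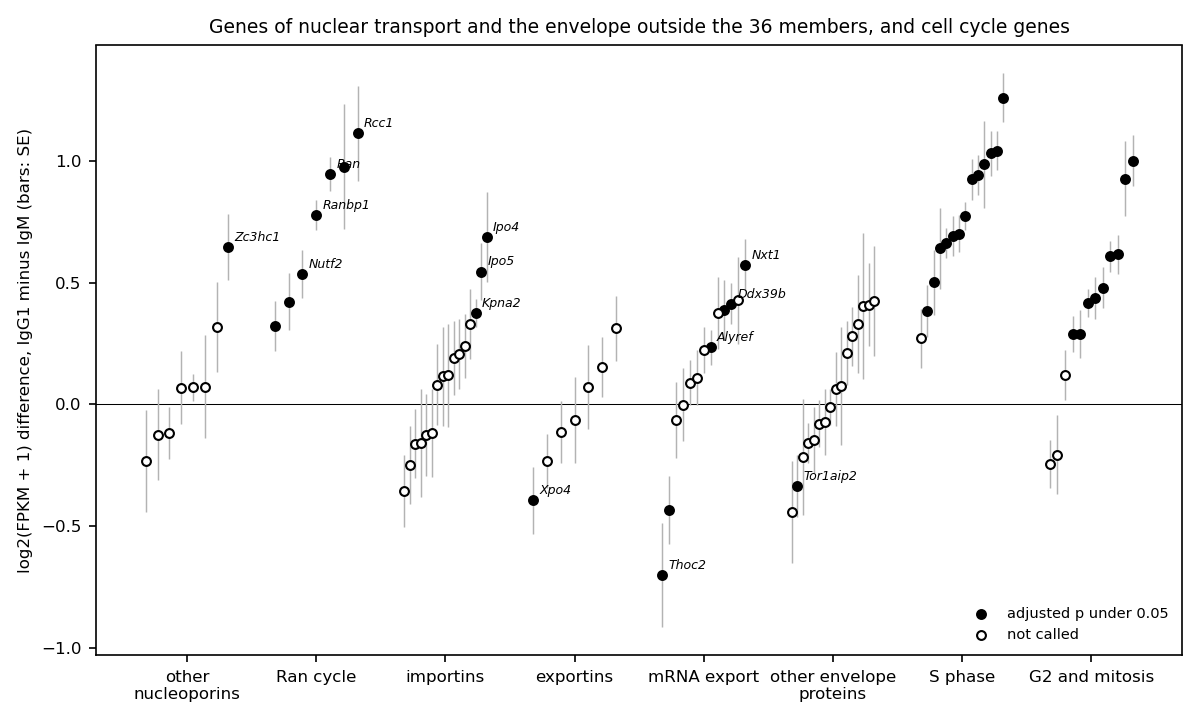
Log2(FPKM + 1) difference, IgG1 minus IgM, with its standard error, of genes of nuclear transport and the envelope that are not members, and of cell cycle genes, by list; filled points have limma's adjusted p under 0.05. All 7 genes of the Ran cycle lie above 0, while importins, exportins and other envelope proteins spread around 0.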

How the data were processed

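RNA was measured in 10 libraries, 5 per group, grouped by sample titles. Per the labels' protocols, extraction used miRNeasy Micro and library construction used Takara's SMART-Seq mRNA HT LP. Kits of this kind do not keep strand. The submitters' processing notes list HISAT2 2.1.0, Cuffdiff, Cufflinks 2.2.1 and the build GRCm38, with tool roles, settings and annotation not given in the sources used here. The authors deposited FPKM, per the file headers, so depth is known only by estimate and gives no counting interval. Each FPKM is relative to its library, and abundant genes lower the rest.

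Of 47719 identifiers, 47305 matched GENCODE M21 (GRCm38). The test covered genes whose mean over the 10 libraries reached 1 FPKM, on log2(FPKM + 1) with limma 3.58.1 in R 4.3.3 (trend, robust, group as the only term, two-sided), with Benjamini-Hochberg adjustment at 0.05. Length and GC content are those of the longest coding transcript. Similar transcripts were sought with blastn 2.17.0 (at least 90% identity over 200 bases).

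Members and lists were chosen with earlier results of these data known. Values in every library are given for members with no overlap and one of the 12 largest differences, the 4 smallest differences, the 2 highest levels and the lamins, and for Nup88, Ranbp2 and Tpr, picked after their values were seen. Outside lists name up to 4 called genes by smallest p. Alternatives were other pseudocounts, filters and scalings, length and GC trends removed, plain eBayes, a replicate block and each library left out.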

Additional observations from a re-analysis of the deposited data

Results flagged for a closer look

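In 5 of 100 groups of 5 libraries checked, over members and the named genes outside them, the highest or lowest library stood apart from the others by more than 0.71 of the group's range. Chance alone gives about 1 in 20 groups. Nup133 reached 7.269 FPKM in IgG1 replicate 3 against 4.163 to 4.908 in the other IgG1 libraries, and Nup54 reached 13.77 FPKM in the same library against 10.59 to 11.4. Ranbp2 was at 13.78 FPKM in IgG1 replicate 4 against 17.46 to 18.11. Lmna was at 1.99 FPKM in IgM replicate 1 against 0.4789 to 0.6023. Alyref was at 147.5 FPKM in IgG1 replicate 5 against 179.1 to 193.0.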

How the results depend on the processing

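Of the 20 called members, 14 stayed called in all 20 alternatives; Ndc1, Nup188, Nup37, Nup88, Ranbp2 and Tpr were lost in some, and Nup107, Nup133, Nup155 and Nup214 were gained in some. No called gene reversed. Members called lower numbered 3, and 1 without trend and robust settings, with length and GC trends removed or with no filter, and 1 to 3 with a library left out. The members' median of 0.378 became 0.285 with a pseudocount of 5 and 0.479 under quantile normalization, which moved the median of all genes from -0.051 to 0.061 and their calls from 1791 higher and 2001 lower to 2182 and 1510. Genes outside the members called lower numbered 4, and 1 with length and GC trends removed, no filter or quantile normalization, and 2 to 4 with a library left out. With no filter, 10 of them were called higher, against 15. The cause of these moves was not tested. Correlations of deviations between IgM and IgG1 libraries of the same number were -0.0357 to 0.0966, and those of different numbers -0.0997 to 0.0937. Such values cannot tell whether libraries of one number share an animal. With a replicate block, 18 members were called higher and 3 lower, and 17 outside genes higher and 2 lower. In that fit the calls of Xpo4 and Tor1aip2 were lost (adjusted p = 0.0507 and 0.0766 by limma). FPKM without counts limits what can be said of low genes such as Lmna and Sun2.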
